A study of Rattus norvegicus with 6 samples.

Results

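The 10 genes of the vitamin D hormone system and of renal calcium and phosphate transport described here, in renal cortex, are Vdr, Cyp24a1, Cyp27b1, Calb1, S100g, Trpv5, Slc34a1, Slc34a3, Kl and Pth1r. They were chosen by name. Their probes were those whose RefSeq accession maps to one of these rat genes, which gave 15 probes for 10 genes among 32428 features tested. All 10 passed the filter on dim probes, and all 15 probes were well above background on all 6 arrays. Total RNA came from male Sprague-Dawley (Crl:CD(SD)) rats, 5 weeks old when bought, on a basal diet. In one group 3 rats received o-nitroanisole, a nitroaromatic compound, at 400 mg/kg/day for 4 weeks, and in the other 3 rats received corn oil for 4 weeks. Each rat gave 1 one-colour (Cy3) Agilent array.

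Vitamin D becomes a hormone in the kidney. Cyp27b1, in the proximal tubule, adds the last hydroxyl group that makes the active hormone calcitriol, and Cyp24a1 breaks calcitriol down. Calcitriol acts through the nuclear receptor encoded by Vdr, whose known targets include Cyp24a1 and genes of distal calcium transport. Phosphate is recovered in the proximal tubule under the control of parathyroid hormone and of FGF23, which needs the co-receptor Klotho.

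In the rats given o-nitroanisole, the receptor and the degrading enzyme were higher and the activating enzyme was lower. The log2 difference, o-nitroanisole minus corn oil, was 0.68 ± 0.09 for Vdr, 0.53 ± 0.07 for Cyp24a1 and -0.67 ± 0.23 for Cyp27b1 (SE, n = 3 per group). The calcium buffer S100g was 0.33 ± 0.09 higher. The proximal phosphate transporters Slc34a1 and Slc34a3 lay within 0.03 of no difference. None of the 10 passed an adjusted p of 0.05 with limma's default moderation, where 0.0% of all features did (0 of 32428, with 6142 at an unadjusted p under 0.05). With a variance trend and robust moderation, Vdr and Cyp24a1 passed, that is 2 of 10 members, both higher, against 1.24% of all features called higher (1.61% in either direction). With normexp background correction Vdr passed, 1 of 10 against 0.364%.

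At an unadjusted p under 0.05 there were 4 of 10 members, 3 higher and 1 lower, where 18.9% of all features met that level (11.8% higher and 7.12% lower). Groups did not overlap for 5 of 10 members, 3 higher and 2 lower, against 27.2% of all features (17.6% higher and 9.56% lower). The median log2 difference was 0.20 over the members and 0.03 over all features. The file headers place the o-nitroanisole arrays on slide 2 (scan 2) and the corn oil arrays on slide 1 (scan 1). An effect of slide or scanning and an effect of treatment cannot be told apart. Per array, 66.4% to 71.5% of probes were well above background, and 3 arrays per group limit the precision.

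**Figure D1:**
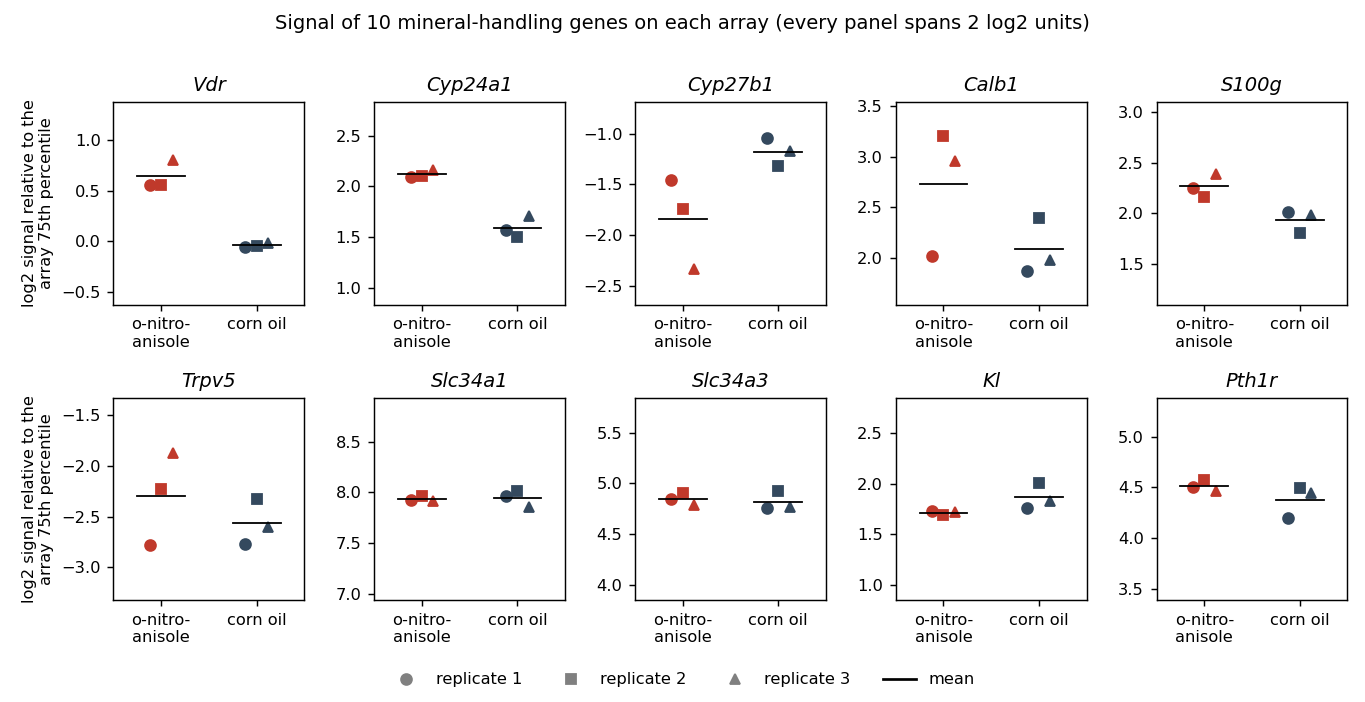
Signal of the probe that stands for each gene, as log2 of its ratio to the array's 75th percentile, for 3 o-nitroanisole arrays (red, left) and 3 corn oil arrays (blue-gray, right); symbols mark the replicate and the line the mean. O-nitroanisole lies above corn oil without overlap for Vdr, Cyp24a1 and S100g and below it for Cyp27b1 and Kl, and the groups overlap for the other 5 genes.

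Signals below are ratios to the array's 75th percentile of processed signal and are compared between groups for 1 probe at a time. Vdr, the vitamin D receptor, had signals of 1.47, 1.47 and 1.75 in o-nitroanisole rats, against 0.960, 0.970 and 0.988 in corn oil rats. Every o-nitroanisole rat lay above every corn oil rat, and the corn oil values were close together (SD 0.0145). The fold was 1.60, with a 95% interval from 1.38 to 1.86 (adjusted p = 0.0820 with limma's defaults, 0.0295 with trend and robust moderation and 0.0305 with normexp). Its second probe had signals of 0.376, 0.363 and 0.402 in o-nitroanisole rats and 0.267, 0.215 and 0.267 in corn oil rats, a log2 difference of 0.61 ± 0.11. Both probes thus placed all treated rats above all control rats.

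Cyp24a1, the enzyme that inactivates calcitriol, had signals of 4.26, 4.31 and 4.48 in o-nitroanisole rats, against 2.97, 2.83 and 3.26 in corn oil rats. The groups did not overlap, and the treated rats lay close together. The fold was 1.44, with a 95% interval from 1.27 to 1.64 (adjusted p = 0.0880 with limma's defaults, 0.0307 with trend and robust moderation and 0.0518 with normexp). A second probe gave 1.17, 1.19 and 1.09 in o-nitroanisole rats and 0.734, 0.765 and 0.822 in corn oil rats, a log2 difference of 0.57 ± 0.07. When any single array was left out, trend and robust moderation gave Vdr an adjusted p from 0.0536 to 0.0912, passing in 0 of 6 fits. It gave Cyp24a1 0.0491 to 0.108, passing only without corn oil replicate 3, and each such fit also has 1 array fewer.

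Cyp27b1, the 1-alpha-hydroxylase that makes calcitriol, went the other way. Its signals were 0.364, 0.298 and 0.199 in o-nitroanisole rats, against 0.485, 0.401 and 0.445 in corn oil rats. All treated rats lay below all controls, but their own spread was wide, with o-nitroanisole replicate 3 the lowest. The fold was 0.630, with a 95% interval from 0.424 to 0.934 (unadjusted p = 0.0287 and adjusted p = 0.213 with limma's defaults). Without o-nitroanisole replicate 3 the log2 difference was -0.42, against -0.67 with all arrays. Only 1 probe measured this gene.

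Because the enzymes differed in opposite directions, their ratio within an array differed more than either alone. A single scaling factor per array cancels in this ratio, but quantile normalization and background correction do not. The log2 differences of Cyp24a1 and Cyp27b1 were 0.50 and -0.66 under quantile normalization and 0.47 and -0.57 under normexp. The log2 ratio of Cyp24a1 to Cyp27b1 was 3.55, 3.85 and 4.50 in o-nitroanisole rats, against 2.61, 2.82 and 2.87 in corn oil rats. The group means were 3.97 ± 0.48 and 2.77 ± 0.14 (SD, n = 3 each), a difference of 1.20. For Vdr over Cyp27b1 the log2 ratio was 2.01, 2.30 and 3.14 in o-nitroanisole rats and 0.98, 1.28 and 1.15 in corn oil rats. Both ratios were lower in each control rat than in any treated rat. This follows from the values of the single genes, each without overlap of groups, and is not a further result. These ratios were chosen after the values were seen and were not tested, and their size, unlike their difference, also reflects how well each probe binds.

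**Figure D2:**
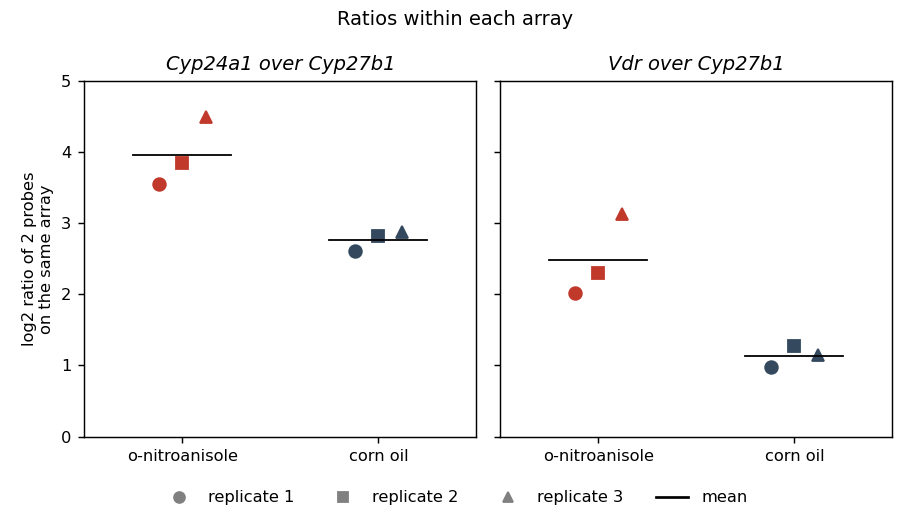
Log2 ratio of the probe signals of 2 genes on the same array for 3 o-nitroanisole arrays (red, left) and 3 corn oil arrays (blue-gray, right), with group means as lines. Cyp24a1 over Cyp27b1 lies between 3.55 and 4.50 in o-nitroanisole and between 2.61 and 2.87 in corn oil.

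The promoters of Vdr and Cyp27b1 are shown as those of a receptor and an enzyme that differed in opposite directions, and that of Cyp27a1, described further on, as that of the wider-list gene that passed a test. They are RefSeq sequences of build GRCr8, 250 bases before to 50 after the annotated start, 5′ to 3′ on the gene's strand, from a table that held 7 of the 10 members, all but Cyp24a1, Calb1 and S100g. Vdr lies on the minus strand at chr7:130916708-130917007, Cyp27b1 on the plus strand at chr7:64756376-64756675 and Cyp27a1 on the plus strand at chr9:83713282-83713581. Capitals mark matches on either strand to a receptor half-site (the letters AGGTCA, the letters AGTTCA, the letters GGGTCA or the letters GGTTCA), to CATCTG, or to the GC box GGGCGG, none of which overlap each other.
Vdr: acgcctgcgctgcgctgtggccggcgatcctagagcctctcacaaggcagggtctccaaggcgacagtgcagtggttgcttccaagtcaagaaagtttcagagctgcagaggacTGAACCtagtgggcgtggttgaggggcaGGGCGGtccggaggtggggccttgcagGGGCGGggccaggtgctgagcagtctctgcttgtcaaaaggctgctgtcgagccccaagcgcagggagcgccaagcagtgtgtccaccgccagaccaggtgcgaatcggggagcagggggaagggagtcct
Cyp27b1: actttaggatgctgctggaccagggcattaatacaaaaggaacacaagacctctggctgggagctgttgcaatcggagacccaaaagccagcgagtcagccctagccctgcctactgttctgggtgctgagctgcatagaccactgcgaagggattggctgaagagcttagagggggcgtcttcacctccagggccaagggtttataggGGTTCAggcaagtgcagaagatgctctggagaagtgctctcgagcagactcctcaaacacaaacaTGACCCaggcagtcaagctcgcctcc
Cyp27a1: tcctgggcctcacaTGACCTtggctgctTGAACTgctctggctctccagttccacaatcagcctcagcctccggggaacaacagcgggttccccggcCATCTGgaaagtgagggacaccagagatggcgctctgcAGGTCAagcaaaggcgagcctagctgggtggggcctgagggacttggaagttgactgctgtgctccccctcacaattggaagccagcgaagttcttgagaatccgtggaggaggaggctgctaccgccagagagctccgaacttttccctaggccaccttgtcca
Vdr held 1 half-site, beginning 136 bases before the start, and 2 GC boxes, at 108 and 81 bases before it. Cyp27b1 held 2 half-sites, at 41 bases before and 24 bases after the start, and Cyp27a1 held 3 half-sites and 1 CATCTG. A half-site occurred in 44.4% of 33469 promoters of this length, a GC box in 33.1% and CATCTG in 16.6%. A pair of half-sites in direct repeat with 3 bases between them, the layout known for vitamin D response elements, occurred in 0.0986% of all promoters and in 0 of the 7 members listed. These matches describe letters in a short window and say nothing of binding.

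Distal calcium transport runs from entry through the channel Trpv5, through buffering by calbindin-D28k (Calb1) and calbindin-D9k (S100g), to export. S100g had signals of 4.76, 4.46 and 5.22 in o-nitroanisole rats, against 4.02, 3.50 and 3.95 in corn oil rats. The groups did not overlap and the fold was 1.26, with a 95% interval from 1.08 to 1.47 (adjusted p = 0.160 with limma's defaults and 0.0913 with trend and robust moderation). Calb1 had signals of 4.06, 9.21 and 7.76 in o-nitroanisole rats, against 3.67, 5.27 and 3.95 in corn oil rats. The groups overlapped, since o-nitroanisole replicate 1 lay among the controls while the other treated rats lay above all of them. Its log2 difference was 0.64 ± 0.33, with a 95% interval from -0.18 to 1.46 (adjusted p = 0.363 with limma's defaults). Without o-nitroanisole replicate 1 it was 0.99, and without o-nitroanisole replicate 2 it was 0.40.

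Trpv5, the apical calcium channel, had signals of 0.145, 0.214 and 0.274 in o-nitroanisole rats, against 0.147, 0.200 and 0.164 in corn oil rats. Again o-nitroanisole replicate 1 was the low one among the treated, and by this probe it lay just below every control. By a second probe it had 0.0683, above corn oil replicate 3 at 0.0544. By the brighter probe the log2 difference was 0.27 ± 0.25 (95% interval -0.35 to 0.90), with 0.26 ± 0.23 by the second probe. By the brighter probe it ranged from 0.06 without o-nitroanisole replicate 3 to 0.52 without o-nitroanisole replicate 1.

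Of 12 listed markers of the distal convoluted and connecting tubule, 7 were tested. A positive difference was found for 6 of 7, against 18171 of 32428 features, and 2 of 7 (28.6%) reached an unadjusted p under 0.05, against 18.9% of all features. None passed with limma's defaults. With trend and robust moderation 1 of 7 passed, Kcnj16, higher, against 1.24% of all features called higher (1.61% in either direction). Kcnj16, a basolateral potassium channel, lay 0.52 ± 0.09 log2 higher (adjusted p = 0.109 with limma's defaults and 0.0415 with trend and robust moderation), and Wnk4, a kinase that regulates salt transport, 0.29 ± 0.12 higher, with 0.14 ± 0.12 and overlapping groups by a second probe. Slc12a3, the thiazide-sensitive cotransporter, had 13.5, 16.7 and 22.0 in o-nitroanisole rats and 12.6, 14.9 and 11.6 in corn oil rats. The summed signal of the 7 markers was 103 to 110 in o-nitroanisole rats and 83.6 to 101 in corn oil rats. Pvalb, a further marker, was at background on all 6 arrays, and the sodium-calcium exchanger Slc8a1, which exports calcium, lay at -0.05 ± 0.40. In such tissue samples, fewer or more cells of a type and less or more RNA per cell cannot be told apart.

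**Figure D3:**
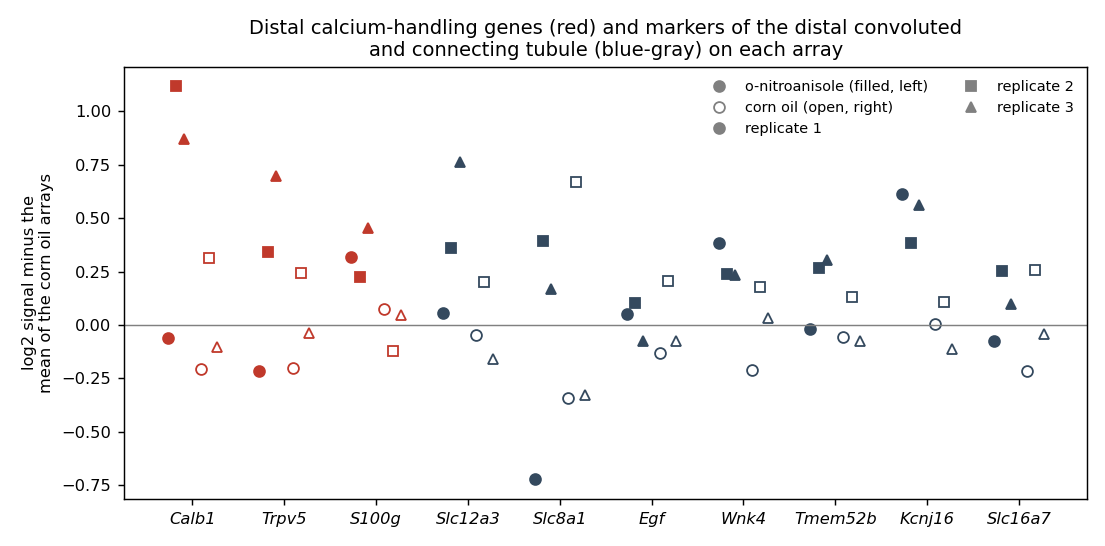
Log2 signal of 3 distal calcium-handling genes (red) and 7 markers of the distal convoluted and connecting tubule (blue-gray), each minus the mean of its corn oil arrays; filled symbols on the left are o-nitroanisole, open symbols on the right corn oil. For Calb1, Trpv5 and Slc8a1 o-nitroanisole replicate 1 lies well below the other treated rats, while for S100g and Kcnj16 all 3 treated rats lie above all corn oil rats.

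The phosphate arm differed little between groups. Slc34a1, the main sodium-phosphate cotransporter of the proximal brush border, had signals of 242, 249 and 241 in o-nitroanisole rats, against 250, 258 and 232 in corn oil rats. The treated values lay inside the control range. The fold was 0.990, with a 95% interval from 0.886 to 1.11 (adjusted p = 0.923 with limma's defaults). Its direction was not settled: the log2 difference was -0.01 by the brighter probe, 0.04 by the other, and -0.15 under quantile normalization. Slc34a3, a second cotransporter of the same family, had 28.7, 30.0 and 27.7 in o-nitroanisole rats and 27.1, 30.5 and 27.3 in corn oil rats, a fold of 1.02 (95% interval 0.897 to 1.16), and a log2 difference of -0.07 under quantile normalization.

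Pth1r, the receptor for parathyroid hormone, had signals of 22.7, 23.8 and 22.1 in o-nitroanisole rats, against 18.4, 22.5 and 21.8 in corn oil rats. The groups overlapped, with corn oil replicate 1 the lowest of all, and the fold was 1.10 (95% interval 0.933 to 1.29). Kl, which encodes Klotho, had 3.31, 3.23 and 3.30 in o-nitroanisole rats, against 3.39, 4.02 and 3.56 in corn oil rats. Treated rats lay just below all controls by this probe, with a log2 difference of -0.15 ± 0.08 (adjusted p = 0.373 with limma's defaults). The other Kl probe gave -0.01 ± 0.06 with overlapping groups, so the non-overlap held for 1 of 2 probes. Proximal tubule markers beside these genes had a summed signal of 2824 to 2877 in o-nitroanisole rats and 2727 to 2861 in corn oil rats. Of these 12 markers, 8 had positive and 4 negative differences, which partly cancel in the sum. At an unadjusted p under 0.05 there were 8 of 12 (66.7%), 5 higher and 3 lower, against 18.9% of all features. Groups did not overlap for 11 of 12 (91.7%), against 27.2% of all features. With trend and robust moderation 2 passed, both higher, against 1.24% of all features called higher. The differences ran from -1.41 to 0.57 log2.

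Of 62 further genes of vitamin D, calcium and phosphate biology, 46 were tested. None passed with limma's defaults (11 at an unadjusted p under 0.05). With trend and robust moderation 1 of 46 passed, higher, against 1.24% of all features called higher (1.61% in either direction). With normexp 1 of 46 passed, against 0.364% of all features. Those 11, 6 higher and 5 lower, are 23.9% of those tested against 18.9% of all features. The 6 higher include Trpv6, which entered the test only through the o-nitroanisole group, where it was higher. The median log2 difference over the 46 tested was 0.01. The gene that passed was Cyp27a1, a mitochondrial sterol hydroxylase able to add the 25-hydroxyl group to vitamin D. It had signals of 0.428, 0.460 and 0.483 in o-nitroanisole rats, against 0.289, 0.296 and 0.324 in corn oil rats. The groups did not overlap, and the fold was 1.51, with a 95% interval from 1.32 to 1.73 (adjusted p = 0.0876 with limma's defaults, 0.0369 with trend and robust moderation and 0.0492 with normexp). It passed in 0 of 6 trend and robust fits that left out 1 array.

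Among partners of the receptor, Rxra had signals of 0.183, 0.184 and 0.189 in o-nitroanisole rats, against 0.149, 0.150 and 0.159 in corn oil rats. This retinoid receptor pairs with the vitamin D receptor on DNA, and its log2 difference was 0.28 ± 0.06 (adjusted p = 0.121 with limma's defaults). Its relative Rxrg lay at -0.27 ± 0.11, with probes from -0.27 to -0.13 and overlapping groups. Dhcr7, which consumes the sterol that skin converts to vitamin D, lay at 0.37 ± 0.17.

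Trpv6, the calcium channel related to Trpv5 and a known calcitriol target in intestine, had signals of 0.0419, 0.0458 and 0.0896 in o-nitroanisole rats, against 0.0154, 0.0246 and 0.0389 in corn oil rats. The groups did not overlap, but the signals were dim, and 2 of 3 corn oil arrays and 3 of 3 o-nitroanisole arrays were well above background. Trpv6 thus passed the filter on dim probes only through the o-nitroanisole group, where it was higher, so its direction is tied to its entry in the test. The log2 difference was 1.18 ± 0.43 (adjusted p = 0.233 with limma's defaults), and 0.43 under normexp. Of the other phosphate transporters, the widely expressed Slc20a1 had 2.40, 2.81 and 2.91 in o-nitroanisole rats and 2.07, 2.10 and 2.33 in corn oil rats, a log2 difference of 0.32 ± 0.10. Slc34a2, the intestinal and lung member of the Slc34 family, had 0.0391, 0.0325 and 0.0290 in o-nitroanisole rats, against 0.0923, 0.0569 and 0.0985 in corn oil rats. Treated rats lay below all controls, at -1.27 ± 0.24 log2 (adjusted p = 0.114 with limma's defaults), and at -0.58 under normexp. Galnt3, which glycosylates FGF23, had 1.45, 2.02 and 2.16 in o-nitroanisole rats, against 3.27, 3.80 and 2.82 in corn oil rats. Its log2 difference was -0.82 ± 0.19 (adjusted p = 0.134 with limma's defaults), and -0.98 ± 0.20 by a second, dimmer probe.

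Paracellular calcium and magnesium recovery in the thick ascending limb depends on the tight junction proteins claudin-16 and claudin-19. Cldn16 had signals of 0.684, 0.552 and 0.833 in o-nitroanisole rats and 0.949, 0.861 and 0.897 in corn oil rats. Cldn19 had 5.38, 5.58 and 5.48 in o-nitroanisole rats and 6.16, 6.11 and 7.15 in corn oil rats. Groups did not overlap for either gene by the brightest probe, at -0.41 ± 0.16 and -0.24 ± 0.08 log2 (adjusted p = 0.244 and 0.211 with limma's defaults). Cldn2, the proximal tubule cation pore, lay at -0.18 ± 0.07 by its brighter probe and at -0.37 ± 0.08 by its dimmer one, with no overlap of groups by either. Cldn14, an inhibitor of claudin-16 function, lay at 0.18 ± 0.07, with a second probe at -0.49 ± 0.49. Cldn16 and Cldn19 are also on the list of thick ascending limb markers, of which 7 of 8 were tested. A negative difference was found for 5 of 7, against 14257 of 32428 features, and none passed with limma's defaults, with trend and robust moderation or with normexp. At an unadjusted p under 0.05 there were 5 of 7 (71.4%), 4 lower and 1 higher, against 18.9% of all features (7.12% lower and 11.8% higher). The higher one, Sostdc1, a secreted inhibitor of BMP and Wnt signalling, lay at 0.33 ± 0.08, and Umod, which encodes uromodulin, at -0.25 ± 0.07. The summed signal of the 7 markers, mostly from Umod, was 423 to 455 in o-nitroanisole rats and 499 to 546 in corn oil rats. The part of cell make-up in these differences was not tested.

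**Figure D4:**
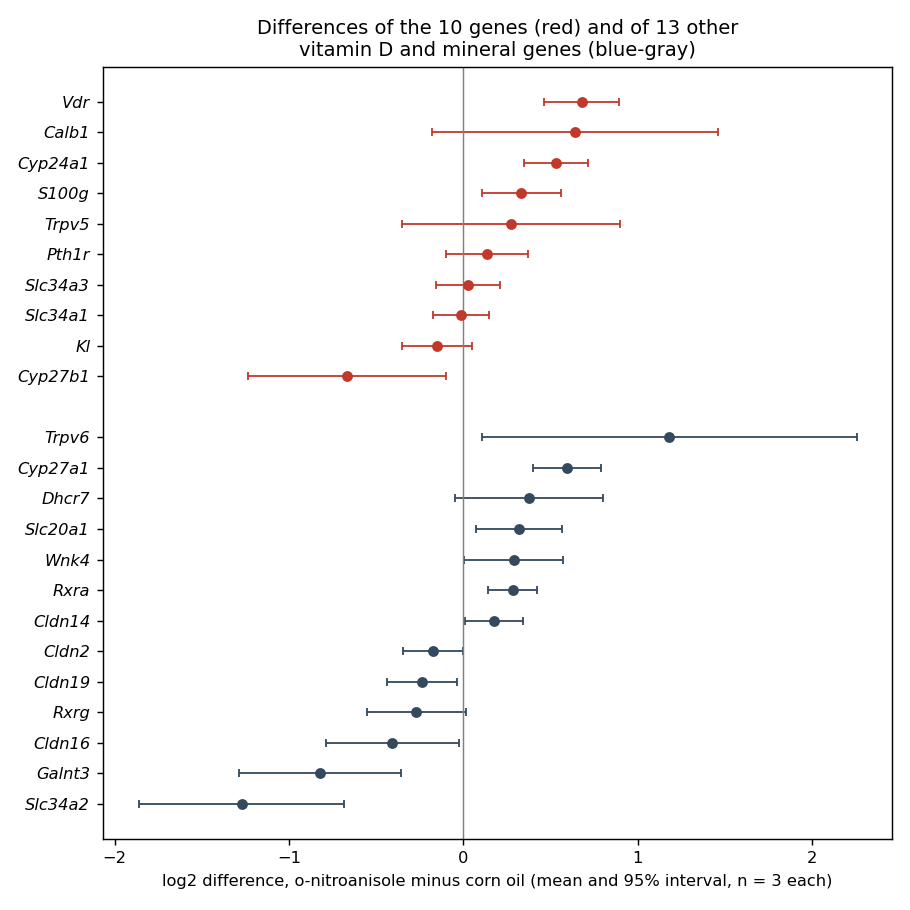
Log2 difference, o-nitroanisole minus corn oil, with 95% intervals from the limma fit (n = 3 per group), for the 10 genes (red, upper block) and for 13 further genes with the smallest unadjusted p of the wider list (blue-gray, lower block). The intervals of Vdr, Cyp24a1 and S100g lie above 0, that of Cyp27b1 lies below 0, and those of the other 6 members include 0.

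Other markers gave context for the cortex label. Collecting duct markers had a summed signal of 244 to 281 in o-nitroanisole rats and 219 to 236 in corn oil rats. Red blood cell markers had 263 to 314 in o-nitroanisole rats and 169 to 194 in corn oil rats, and neither sum overlapped between groups. The red blood cell sum came mostly from Hbb, at 243 to 295 in o-nitroanisole rats and 159 to 184 in corn oil rats. Differences were positive for 8 of 11 collecting duct markers and 7 of 7 red blood cell markers, against 18171 of 32428 features. At an unadjusted p under 0.05 were 7 of 11 (63.6%) and 6 of 7 (85.7%), all higher, against 11.8% of all features higher. Both sums separated the groups as Vdr and Cyp24a1 did, and their part in these results was not tested. The medulla sum was 22.0 to 26.2 in o-nitroanisole rats and 23.3 to 58.0 in corn oil rats, and the podocyte sum was 35.0 to 39.9 in o-nitroanisole rats and 32.1 to 36.7 in corn oil rats. Immune cell markers summed to 3.21 to 4.36 in o-nitroanisole rats and 3.52 to 3.76 in corn oil rats. Parathyroid, bone and adrenal markers were near background: 6 of 7, among them Pth and Gcm2, were not well above it on any array.

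The genes whose pattern over the 6 arrays was most like that of Vdr, the member with the largest difference, were Tmbim6 (Pearson r = 0.999), Gsta1 (r = 0.998) and Oxa1l (r = 0.997). All 3 had higher signals in every o-nitroanisole rat, which follows from their choice by likeness to Vdr and is not a further result. These arrays share a slide within each group, and 827 of the 11811 genes searched had an r over 0.9 with Vdr.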

How the data were processed

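Renal cortex RNA of 6 rats was measured on 6 one-colour arrays. Per the submitters' processing notes, the authors used Agilent Feature Extraction 10.7; per the file headers, the deposited processed signal is a background-subtracted, detrended intensity, not scaled across arrays. A deposited series table gives each probe as a linear ratio to the 75th percentile of its array, as checked within 1%. Each of its corn oil columns holds the values of a different corn oil scanner file, so corn oil replicate numbers are not settled, while the groups are the same. Scanner files were the main source.

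Probes (61657 non-control, among them 84 spike-ins left out of the test) were named through unversioned RefSeq accessions and RefSeq's GRCr8 gene table. Of 33356 accession-bearing probes, 27460 matched. The array headers name build rn4, so no probe coordinates are given. Processed signals were divided by the 75th percentile of their array and log2 transformed, with outlier spots set to missing. Probes entered the test when all arrays of either group called them well above background, and the brightest probe stood for its gene. The fit used limma 3.58.1 under R 4.3.3 (n = 3 per group, default eBayes, Benjamini-Hochberg adjustment over 32428 features), tested on simulated data. Intervals are the fit's 95% intervals. Plots were drawn with matplotlib 3.10.9 from tables made in Python 3.11.15 (pandas 2.3.3, numpy 2.4.6). The labels call the rats biological replicates.

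Members, lists and alternatives were chosen with earlier results of these data known. Named genes were all members, wider-list genes past the threshold in either limma fit, the next 12 by unadjusted p, up to 3 genes of smallest unadjusted p per marker list, and the 3 genes most like the member with the largest difference. Slc8a1 in the report and all genes of the other observations were chosen outside this rule, after their values were seen. Same-numbered arrays' deviations from the group means correlated at 0.091, 0.058 and 0.026, under the 0.1 set for pairing, so the main fit has no block. Alternatives were trend and robust moderation, normexp on the median signal and median local background (offset 50), quantile normalization, other filters on dim or outlier spots, probe means or the dimmer probe, the series table, a replicate block, a looser threshold and leaving out each array.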

Additional observations from a re-analysis of the deposited data

How the results depend on the processing

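The direction of 8 of the 10 members held under each alternative run; Slc34a1 and Slc34a3, near no difference, were the exceptions. Slc34a1 (-0.01 log2) was 0.0035 under normexp, 0.0141 as the mean of its probes, 0.0426 by its dimmer probe and from -0.0576 to 0.0173 on leaving out 1 array. Slc34a3 (0.03) was -0.0676 under quantile normalization and from -0.0035 to 0.0811 on leaving out 1 array (-0.0035 without o-nitroanisole replicate 2 and -0.0029 without corn oil replicate 1). The count of members called, 0, was 2 with trend and robust moderation (Vdr at 0.68, Cyp24a1 at 0.53) and 1 under normexp (Vdr at 0.75); the trend and robust fit on leaving out 1 array, added after seeing the data, called 0 to 1, Cyp24a1 at 0.586 without corn oil replicate 3. The wider list had 1 call in each of these fits with all arrays, and 0 on leaving out 1. Over all features the count of 0 was 522 with trend and robust moderation, 118 under normexp, 359 at an adjusted p under 0.10, 0 to 8 on leaving out 1 array and 0 to 67 when trend and robust moderation was combined with that (25, 0 and 24 without o-nitroanisole replicates 1, 2 and 3, and 6, 58 and 67 without corn oil replicates 1, 2 and 3). Leave-one-out fits have 1 array fewer; otherwise the cause was not tested. Quantile normalization, no dim filter, detection on all 6 arrays, probe means, outlier spots kept and the value table called 0 features. The replicate block called 0 features and 0 members, with Vdr at 0.68 (adjusted p = 0.187), and so did the block with the value table's numbering (0.237); it changed no other call. A block on slide could not be fitted, as each slide held a single group. Probes near background limit Trpv6 and Slc34a2.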

Other observations

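Gc, which encodes the plasma carrier of vitamin D, varied widely between rats of the same group. It and the other genes named here were chosen after their values were seen. Its signals were 1.01, 0.404 and 1.05 in o-nitroanisole rats, against 2.50, 0.532 and 2.65 in corn oil rats, and replicate 2 was the lowest in each group. The log2 difference was -1.01 ± 0.74 (adjusted p = 0.505 with limma's defaults). The endocytic receptors that take up this carrier in the proximal tubule lay nearer to no difference, Lrp2 at -0.10 ± 0.06 and Cubn at 0.20 ± 0.11. Casr, the calcium-sensing receptor, lay at -0.29 ± 0.14 (adjusted p = 0.335 with limma's defaults). By the probe that stood for this gene, 1 of 2, all o-nitroanisole rats lay below all corn oil rats. Stc1, a hormone that acts on mineral transport in fish, lay at -0.55 ± 0.29. Of the FGF receptors, which bind FGF23 together with Klotho, Fgfr1 lay at 0.08 ± 0.13, Fgfr3 at 0.16 ± 0.08 and Fgfr4 at -0.02 ± 0.06, each with overlapping groups.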
